A study of Mus musculus with 189 samples.

Results

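Inhibitory receptors and low-affinity IgG Fc receptors were measured in single mast cells from the mouse peritoneal cavity. The set comprised 10 genes chosen by symbol for this role: Fcgr2b, Fcgr3, Cd300a, Cd300lf, Lilrb4a, Pirb, Milr1, Cd33, Siglece and Cd200r1. Of these, 9 had a row among the 46078 gene rows of the count table, and Lilrb4a was not analysed here. The values are reads per gene in each cell, scaled to CPM, counts per 1000000 of the cell's reads on mouse genes. Cells with at least 100000 such reads were kept.

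The cells came from 4 female C57BL/6 mice and formed 2 groups, 94 mature mast cells and 95 basophil-mast cell progenitors (BMCPs). Single live cells were sorted for c-Kit+ FcεRI+ and against lineage markers in each group, so both carried the mast cell growth factor receptor and the IgE receptor on the surface. The mature gate was integrin β7 low with high side scatter, and the BMCP gate was integrin β7 high with low side scatter. Neither group carried an engineered allele or received a treatment in the labels, and their age was not given in the sources used here.

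The kept cells were 94 mature mast cells with a median of 1255267 reads (561600 to 2152221) and 93 BMCPs with a median of 1247890 (344022 to 2091665). No cell is assigned to a mouse in the labels, so each gate is 1 pooled sample. Differences between gates therefore have no replicate check and no test. The 95% intervals below (exact Poisson for CPM, Clopper-Pearson for shares of cells) cover only the counting of reads or of cells. The Poisson intervals treat reads as independent and leave out PCR copies and the spread between cells, so they are too narrow. Intervals of pooled CPM that lie apart do not by themselves separate the gates. The 6 mast cell markers (Kit, Fcer1a, Ms4a2, Cpa3, Cma1, Tpsb2) summed to a median of 250757 CPM in mature mast cells, with a lowest cell at 110878. In BMCPs the median was 160831 and the lowest cell 345 CPM. BMCP numbers 46 and 80 went against their label, with 67713 and 71090 CPM of the B cell marker list and 0.113% and 0.156% of reads on granule genes. Results that rest on them are given with and without them. Of the 8 macrophage markers none reached 5 CPM in either gate, and Adgre1, Csf1r and C1qb had no read. The T cell, NK cell, eosinophil, neutrophil and dendritic cell lists had a median of 0 CPM in both gates. Single BMCPs reached 764 CPM of the T cell, 346 of the NK cell, 805 of the eosinophil and 184 of the dendritic cell list. The highest mature mast cell had 322 CPM of the eosinophil list. The B cell list had a median of 104 CPM in mature mast cells, with a highest cell at 1355, and 3.19 CPM in BMCPs. Its gene Ighm had 228 pooled CPM in the mature gate.

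Mast cells are triggered when antigen crosslinks IgE bound to FcεRI, whose γ chain carries an activating ITAM motif phosphorylated by the kinase Lyn. Inhibitory receptors carry ITIM motifs instead, and when phosphorylated these recruit the tyrosine phosphatase SHP-1 (Ptpn6) or the lipid phosphatase SHIP1 (Inpp5d), which dampen the signal. FcγRIIb (Fcgr2b) is the inhibitory IgG receptor of mice, and FcγRIII (Fcgr3) is an activating IgG receptor that signals through the same γ chain (Fcer1g) as the IgE receptor.

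The receptor sequences matter for the measurement because reads were 50 bases long and close relatives share stretches of that length. Fcgr2b and Fcgr3 lie on the minus strand of chromosome 1, 74.6 kb apart in GRCm38. The longest run that their GENCODE transcripts share is 129 bases, all of them coding in both genes. It is shown because a read that falls inside it cannot be given to either gene. The capitals mark the 27 bases that come from the following exon.

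Fcgr2b and Fcgr3, shared coding run: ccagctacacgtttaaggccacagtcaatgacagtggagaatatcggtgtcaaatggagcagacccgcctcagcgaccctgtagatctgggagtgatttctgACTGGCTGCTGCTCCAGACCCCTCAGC

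In Fcgr2b the run occupies chr1:170967980-170968081 and chr1:170966674-170966700, and in Fcgr3 chr1:171057691-171057792 and chr1:171054167-171054193. Of all 50-base stretches in the Fcgr3 transcripts, 9.58% occur in another gene, every one of them in Fcgr2b. For Fcgr2b the share is 6.95%. Pirb has the largest share among the measured members, 33.97%, with Gm14548 the gene that shares most of them. For Cd300a it is 3.45%, for Cd300lf 2.44%, for Milr1 1.29%, for Cd200r1 1.16%, for Cd33 0.458% and for Siglece 0%. Milr1 also shares exon bases with Polg2, and Fcgr2b with Gm38204, so reads there are uncertain. How reads that fit several genes were counted is not given in the sources used here.

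RefSeq start-site windows of 300 bases (GRCm38.p6) were available for 8 of the 10 members. Those of the 2 IgG receptors and of Siglece are shown because these genes span the range found below, from a gene read in nearly every cell to one without a read. All 3 lie on the minus strand and are printed 5′ to 3′ along it. Capitals mark matches, on either strand, to 4 GATA words (AGATAA or AGATAG or TGATAA or TGATAG) or to the PU box (GAGGAA). No GATA match overlapped a PU box match. RefSeq gives Fcgr3 a second start a few bases away, whose window is not printed.

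Fcgr3 (chr1:171059354-171059653): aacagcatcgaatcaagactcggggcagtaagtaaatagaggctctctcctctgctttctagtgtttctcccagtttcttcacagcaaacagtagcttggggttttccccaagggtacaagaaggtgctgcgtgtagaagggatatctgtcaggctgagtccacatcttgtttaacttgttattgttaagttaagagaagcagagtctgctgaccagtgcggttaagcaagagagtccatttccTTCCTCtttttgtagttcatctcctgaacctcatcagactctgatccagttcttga

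Fcgr2b (chr1:170976022-170976321): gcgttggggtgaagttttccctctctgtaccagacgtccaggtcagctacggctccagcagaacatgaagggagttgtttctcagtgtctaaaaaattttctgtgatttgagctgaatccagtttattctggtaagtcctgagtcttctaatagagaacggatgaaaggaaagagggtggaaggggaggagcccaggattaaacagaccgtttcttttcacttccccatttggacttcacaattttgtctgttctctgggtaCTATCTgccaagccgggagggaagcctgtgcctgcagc

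Siglece (chr7:43660112-43660411): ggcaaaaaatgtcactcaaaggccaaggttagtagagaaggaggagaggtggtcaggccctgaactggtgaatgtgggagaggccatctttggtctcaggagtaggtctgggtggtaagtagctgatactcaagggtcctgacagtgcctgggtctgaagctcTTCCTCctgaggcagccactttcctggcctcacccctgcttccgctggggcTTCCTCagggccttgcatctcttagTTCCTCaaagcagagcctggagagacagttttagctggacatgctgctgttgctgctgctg

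The Fcgr3 window held 1 PU box and no GATA word, the Fcgr2b window 1 GATA word and no PU box, and the Siglece window 3 PU boxes. Among all 32851 RefSeq windows of this length, 29.8% held a GATA word and 28.3% a PU box. Milr1 had the most GATA words among the members, 3, beside 1 PU box.

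Fcgr3 (ENSMUSG00000059498, chr1:171051174-171064935) was the member read in the most cells. Its CPM per mature mast cell ran from 0.678 through a median of 726 to 2459, and per BMCP from 0 through 657.02 to 5546. The 2 distributions overlapped. Cells under 50 reads were mainly BMCPs (15 of 93, against 2 of 94), and so were the 2 highest cells, BMCP numbers 11 and 54. Pooled over the cells of a gate, Fcgr3 stood at 815 CPM (95% interval 809 to 820) in the mature gate and 739.9 CPM (735 to 745) in the BMCP gate. The log2 of the mature over the BMCP value was 0.14, and this order holds for every ratio between the gates below. After each cell was thinned to 100000 reads, 93 of 94 mature mast cells (98.9%, 94.2 to 99.97) and 79 of 93 BMCPs (84.9%, 76.03 to 91.5) held an Fcgr3 read.

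Fcgr2b (ENSMUSG00000026656, chr1:170958617-170976547) was divided between cells rather than read in all of them. The lowest cell of each gate had 0 CPM, the median cell had 7.52 CPM in the mature and 8.58 CPM in the BMCP gate, and the highest cells had 1340.1 and 1558 CPM. Cells with 50 or more Fcgr2b reads made up 45 of 94 in the mature gate (47.9%, 37.5 to 58.4) and 39 of 93 in the BMCP gate (41.9%, 31.8 to 52.6). A further 40 mature mast cells and 41 BMCPs had 1 to 49 reads. The pooled values of 186 CPM (183 to 188) and 199 CPM (196 to 201) gave a log2 ratio of -0.10, and the thinned shares of 51 of 94 and 54 of 93 cells had overlapping intervals.

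**Figure D1:**
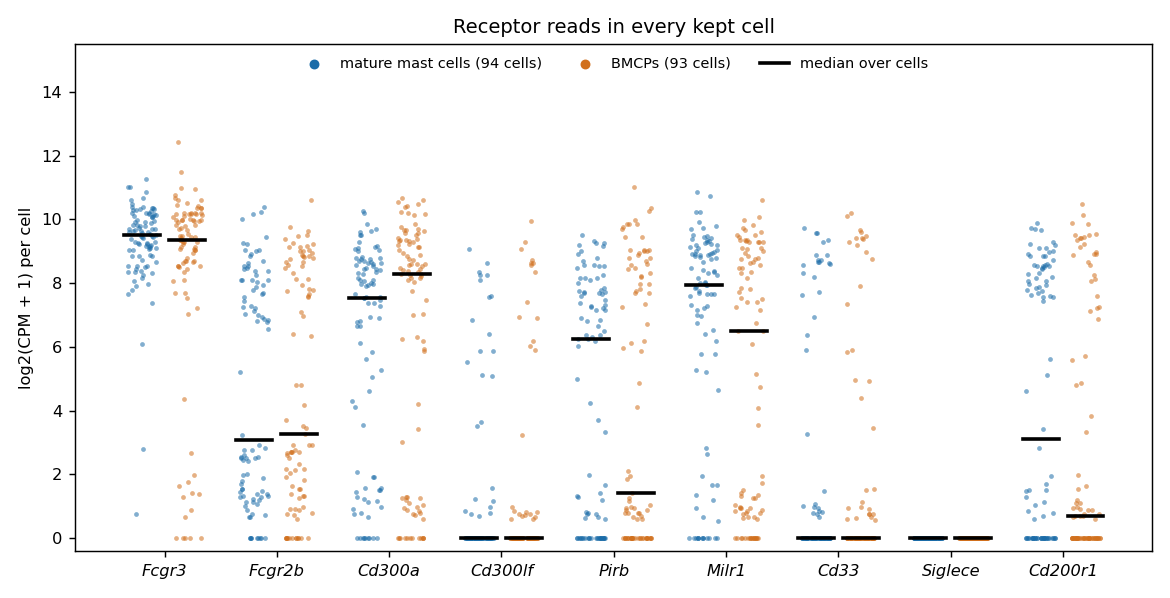
Reads of the 9 measured receptors in each kept cell, as log2(CPM + 1), with 94 mature mast cells in blue and 93 BMCPs in orange. Each point is a cell and each black line the median over cells. Fcgr3 was read in most cells of both gates, Fcgr2b and the other receptors were split between cells with many and with few or no reads, and Siglece had no read.

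Because Fcgr3 reached 50 reads in 92 of 94 mature mast cells and 78 of 93 BMCPs, most cells with Fcgr2b also held Fcgr3. In mature mast cells 45 cells held at least 50 reads of both, 47 of Fcgr3 alone, none of Fcgr2b alone and 2 of neither. In BMCPs 33 cells held both, 45 Fcgr3 alone, 6 Fcgr2b alone and 9 neither. Fcgr2b reads outnumbered Fcgr3 reads in 5 of 94 mature mast cells and 16 of 93 BMCPs. One of the 6 BMCPs with Fcgr2b alone was number 80, with 396 Fcgr2b reads and no Fcgr3 read. Over all reads of the pair, Fcgr2b took 18.6% in mature mast cells and 21.2% in BMCPs.

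Low Fcgr2b counts were set beside the Fcgr3 counts of the same cells. Of the cells with at least 50 reads of Fcgr3, 39 in each gate had 1 to 49 reads of Fcgr2b, and 8 mature mast cells and 6 BMCPs had none. In those with 1 to 49 reads the Fcgr2b count was a median of 0.355% of the Fcgr3 count in mature mast cells and 0.343% in BMCPs. This choice of cells puts every Fcgr2b count below the Fcgr3 count, so that order is not a result. The part of the shared sequence in these low counts was not tested. Spearman's rho between the 2 genes' CPM was 0.39 over 94 mature mast cells and 0.16 over 93 BMCPs, given as a description of cells that share library totals.

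**Figure D2:**
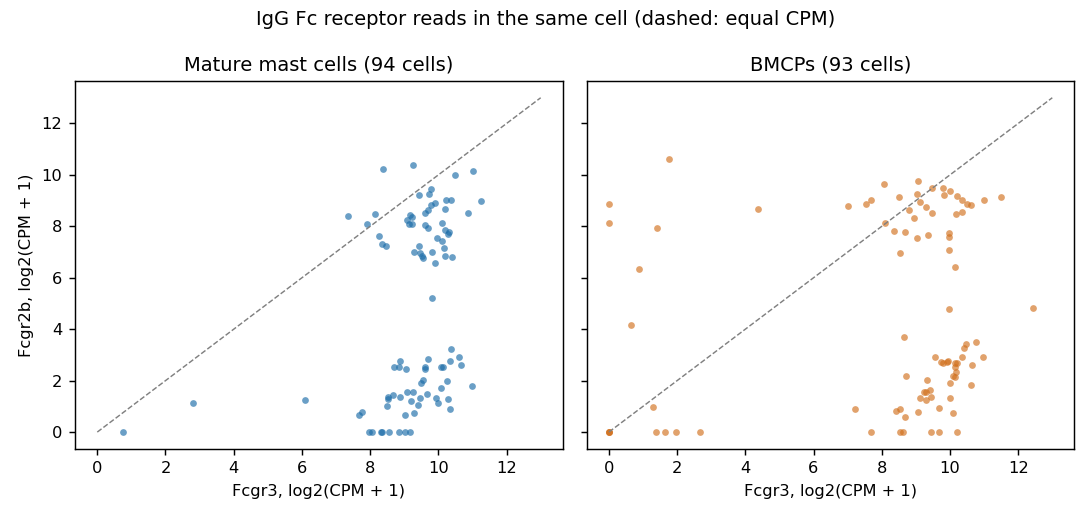
Fcgr2b against Fcgr3 in the same cell, both as log2(CPM + 1), for 94 mature mast cells (left) and 93 BMCPs (right). The dashed line marks equal CPM, and Fcgr2b reads exceeded Fcgr3 reads in 5 mature mast cells and 16 BMCPs. A cloud of cells with many Fcgr3 reads and few Fcgr2b reads is present in both panels.

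Among the ITIM receptors for lipids and MHC proteins, pooled CPM was lower in mature mast cells than in BMCPs for all 3 measured genes, by less than 2-fold. Cd300a (ENSMUSG00000034652, chr11:114890041-114904654) encodes a receptor that binds phospholipids exposed on dying cells. Its median was 185 CPM in mature mast cells, with a highest cell at 1234, and 312 CPM in BMCPs, with a highest cell at 1637. The lowest cells had 0 in both gates, and the ranges overlapped. Pooled Cd300a was 247 CPM (245 to 250.3) against 399 (395 to 402), a log2 ratio of -0.69. The share of cells with a read after thinning was close in the 2 gates, at 72 of 94 (76.6%, 66.7 to 84.7) and 67 of 93 (72.04%, 61.8 to 80.9).

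Pirb (ENSMUSG00000058818, chr7:3711409-3720391) encodes a receptor for MHC class I proteins. Its median cell had 75.3 CPM in the mature gate and 1.69 CPM in the BMCP gate, while the highest cells had 725 and 2078 CPM. The pooled order was the opposite of the order of medians, at 151 CPM (148 to 153) in mature mast cells and 228 (225 to 231) in BMCPs, a log2 ratio of -0.60. BMCP number 3 alone held 12.6% of the BMCP reads. In cells with at least 50 reads the median was 212 CPM over 49 mature mast cells and 413 CPM over 41 BMCPs. The gene's reads are uncertain because 33.97% of its 50-base stretches also occur elsewhere.

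Cd300lf (ENSMUSG00000047798, chr11:115116214-115133992), a second phospholipid-binding receptor with ITIMs, was read in few cells. The per-cell median was 0 in both gates, and the highest cells had 542 CPM in the mature gate and 978 in the BMCP gate. After thinning 17 of 94 mature mast cells (18.1%, 10.9 to 27.4) and 16 of 93 BMCPs (17.2%, 10.2 to 26.4) held a Cd300lf read. Pooled CPM was 32.3 (31.3 to 33.3) against 54.9 (53.6 to 56.2), a log2 ratio of -0.75. BMCP number 28 held 25.5% of the BMCP reads, and without it the ratio was -0.35.

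Milr1 (ENSMUSG00000040528, chr11:106751226-106768794) encodes allergin-1, an ITIM receptor of mast cells. Its per-cell CPM had a median of 245 and a highest value of 1837 in mature mast cells, against 89.5 and 1566 in BMCPs, with 0 as the lowest value in both. Cells with no or few reads were more common among BMCPs, and among cells with at least 50 reads the medians were alike, at 436 CPM over 68 cells and 451 CPM over 48 cells. Pooled Milr1 was 346 CPM (343 to 350) in mature mast cells and 261 (258 to 264) in BMCPs, a log2 ratio of 0.41. After thinning, 74 of 94 mature mast cells (78.7%, 69.1 to 86.5) and 54 of 93 BMCPs (58.1%, 47.4 to 68.2) held a read.

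The sialic acid-binding receptors were read rarely or not at all. Cd33 (ENSMUSG00000004609, chr7:43524216-43544428) had a per-cell median of 0 and highest cells at 848 CPM in the mature gate and 1162 in the BMCP gate. Cells with a Cd33 read after thinning numbered 22 of 94 in the mature gate (23.4%, 15.3 to 33.3) and 21 of 93 in the BMCP gate (22.6%, 14.6 to 32.4). Pooled Cd33 was 95.2 CPM (93.5 to 97.0) against 103 (101 to 105), a log2 ratio of -0.11. The sign depended on which cells were counted, at -0.85 over the first stretch of the table's columns and 1.58 over the last.

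Siglece (ENSMUSG00000030474, chr7:43651070-43660161), an ITIM receptor known from neutrophils and macrophages, had 0 reads in all 187 kept cells. With reads taken as independent, 3 reads are the limit for a count of 0. At this depth that is 0.0252 CPM in the mature gate and 0.0251 CPM in the BMCP gate. These limits are too low, because the reads of a gene can come from a single cell. All 470 reads of Cbl in BMCPs, for example, came from BMCP number 86 and gave 3.93 pooled CPM. Counted over cells, the Clopper-Pearson intervals for Siglece reach 3.85% of mature mast cells and 3.89% of BMCPs. Higher levels in a few cells of a gate are therefore not excluded. No 50-base stretch of the Siglece transcripts occurs in another gene.

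Cd200r1 (ENSMUSG00000022667, chr16:44765736-44794978) encodes the receptor for CD200, which lacks an ITIM and signals through the adaptors Dok1 and Dok2 and the Ras inhibitor RasGAP (Rasa1). Its per-cell CPM had a median of 7.92 and a highest value of 948 in mature mast cells, against 0.626 and 1418 in BMCPs. Both gates held cells without a read, and their ranges overlapped. Pooled Cd200r1 was 183 CPM (181 to 186) against 154 (152 to 156), a log2 ratio of 0.25. After thinning, Cd200r1 was read in 47 of 94 cells of the mature gate (50.0%, 39.5 to 60.5) and 35 of 93 of the BMCP gate (37.6%, 27.8 to 48.3).

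Across the members, none of the 8 with at least 5 CPM differed 2-fold between the gates, where 29.1% of the 10556 genes at that level did. Their median log2 ratio was -0.10, beside -0.25 for all those genes, and they ranged from -0.75 to 0.41. Relative to the median of all genes, Cd300a, Cd300lf and Pirb were lower in mature mast cells, and Milr1, Fcgr2b, Fcgr3 and Cd200r1 higher. This held in the 12 settings of scaling and choice of cells in which that median was computed. A change of scaling moves all genes of a gate nearly alike and cancels against that median. Agreement across scalings was therefore fixed in advance, and only settings that change or reweight cells could alter the order. Unadjusted signs do depend on the scaling. With scaling to the ERCC spike-in RNA, which moved the median of all genes by 0.92, the log2 ratio of Cd300a became 0.22, of Cd300lf 0.14, of Pirb 0.31 and of Fcgr2b 0.81. Without BMCP number 55 these were 0.01, -0.06, 0.10 and 0.60. The ratios of Fcgr2b and Cd33 also turned positive with TMM factors (0.15 and 0.13) and with granule genes left out of the totals (0.11 and 0.09).

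The intervals of the shares of cells lay apart for 2 members, Milr1 and Fcgr3, both higher in mature mast cells. Of all 10556 genes, 5.45% lay apart in this direction and 0.815% in the other. Without BMCP numbers 46 and 80, in which Fcgr3 had 3 and 0 reads and Milr1 2 reads each, the BMCP shares were 86.8% (78.1 to 92.997) for Fcgr3 and 59.3% (48.5 to 69.5) for Milr1. The Fcgr3 intervals then remained apart and the Milr1 intervals overlapped. With cells thinned to 500000 reads, Fcgr3 was read in 93 of 94 mature mast cells and 84 of 90 BMCPs, and both genes' intervals overlapped.

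**Figure D3:**
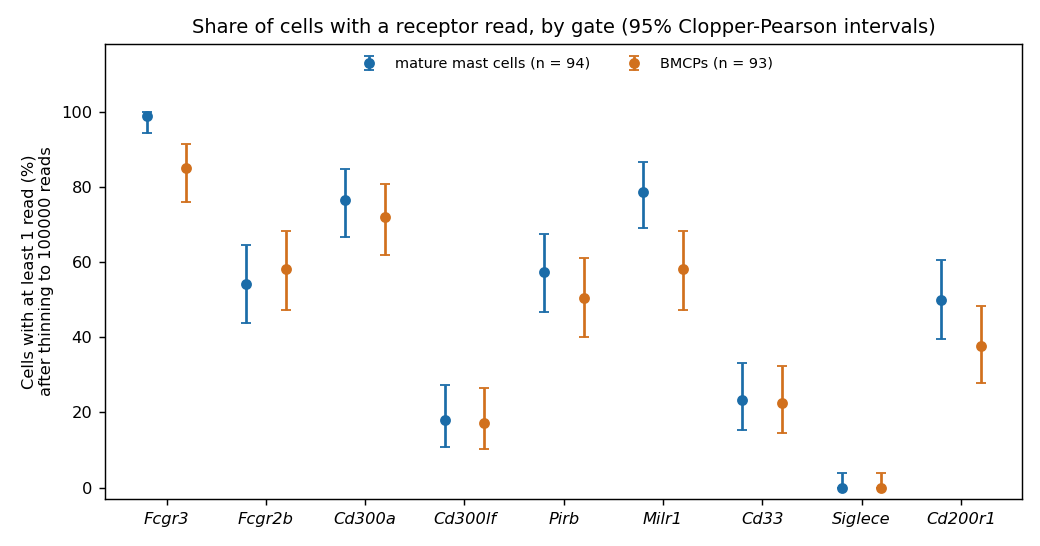
Share of cells (%) with at least 1 read of each receptor after thinning to 100000 reads, for 94 mature mast cells (blue) and 93 BMCPs (orange). Bars are 95% Clopper-Pearson intervals over cells, which lie apart for Fcgr3 (98.9% against 84.9%) and Milr1 (78.7% against 58.1%).

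Per kilobase of exon, Fcgr3 stood first in both gates, at 469 CPM per kb in mature mast cells and 426 in BMCPs. The length used is that of all annotated exons of a gene, not of the transcripts these cells make, so the comparison between genes is approximate. Milr1 followed, at 139.9 and 105 CPM per kb. In mature mast cells Cd200r1 (54.8) and Cd300a (52.2) came next, then Pirb (33.7) and Fcgr2b (32.1), then Cd33 (12.3) and Cd300lf (6.27). In BMCPs the order from the third place was Cd300a (84.2), Pirb (51.02), Cd200r1 (45.96), Fcgr2b (34.3), Cd33 (13.3) and Cd300lf (10.7). The places of Cd200r1 and Fcgr2b in mature mast cells differ through exon lengths of 3.348 and 5.79 kb, since their pooled CPM was 183 and 186. With 1 pooled sample per gate, no spread over mice separates neighbours in these orders.

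A single cell held reads of a changing subset of these receptors. After thinning, a mature mast cell held a median of 5 of the 9 members, with quartiles of 4 and 5 and a range of 2 to 8. A BMCP held a median of 4, with quartiles of 3 and 5 and a range of 0 to 8. At least 5 members were read in 51 of 94 mature mast cells and in 39 of 93 BMCPs. The members' levels were weakly related across cells. Over the 28 pairs of the 8 genes with reads, Spearman's rho across cells had a median of 0.02 in mature mast cells and 0.02 in BMCPs. It ran from -0.14 to 0.39 and from -0.14 to 0.26. For the 6 members read in at least 50% of a gate's cells, no other gene reached a rho of 0.5, among 2880 genes compared over mature mast cells and 2244 over BMCPs.

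The BMCP gate was then divided by Gzmb, which encodes the protease granzyme B and whose reads separate the BMCPs into 60 cells at or above 100 CPM and 33 below. No BMCP lay between 50 and 200 CPM. The Gzmb-low cells had a median of 27.7% of reads on granule genes and the Gzmb-high cells 13.3%, beside 28.2% in mature mast cells. The basophil marker list (Mcpt8, Prss34, Cd200r3, Itga2) also differed with this division. Its summed level ran from 3.64 through a median of 3404 to 37348 CPM in Gzmb-high cells and from 4.64 through 539 to 13357 CPM in Gzmb-low cells. Of its 4 genes 1 differed 2-fold, the basophil protease Mcpt8, at 5144 CPM in Gzmb-high and 25.3 CPM in Gzmb-low BMCPs, and 30.2 CPM in the mature gate. Their part in the receptor differences below was not tested. BMCP numbers 46 and 80 were both Gzmb-low.

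Cd200r1 was lower in Gzmb-high than in Gzmb-low BMCPs, with the same sign in the choices of cells given below. Gzmb cuts at 50 and 200 CPM gave the same division of cells, so they could not change the result. Its median was 0 CPM in Gzmb-high cells, with a highest cell at 1117, and 47.5 CPM in Gzmb-low cells, with a highest cell at 1418. Both held cells without a read. Pooled Cd200r1 was 95.3 CPM (93.1 to 97.5) in Gzmb-high and 257 CPM (253 to 262) in Gzmb-low BMCPs, a log2 ratio of -1.42. A read after thinning was found in 14 of 60 Gzmb-high cells (23.3%, 13.4 to 36.04) and 21 of 33 Gzmb-low cells (63.6%, 45.1 to 79.6), with 50.0% of mature mast cells lying between. The log2 ratio was -1.52 without BMCP numbers 46 and 80, -1.58 and -1.20 over the first and last stretches of columns, and -1.50 without the top cell on either side. At 50 reads or more the shares were 20.0% (10.8 to 32.3) and 48.5% (30.8 to 66.5), and the intervals overlapped.

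Fcgr2b also had a lower share of cells in Gzmb-high BMCPs, with little difference in pooled CPM. A read after thinning was found in 28 of 60 Gzmb-high cells (46.7%, 33.7 to 60.003) and 26 of 33 Gzmb-low cells (78.8%, 61.1 to 91.02). Pooled Fcgr2b was 187 CPM (184 to 190) against 220.4 (216 to 225), a log2 ratio of -0.24, which was 0.10 over the first stretch of columns. Without BMCP numbers 46 and 80, the Gzmb-low share was 25 of 31 cells (80.6%), with the intervals still apart, and the log2 ratio was -0.28. Number 80, with 396 Fcgr2b reads, is among the Gzmb-low cells counted next. At 50 reads or more the shares were 33.3% (21.7 to 46.7) and 57.6% (39.2 to 74.5), with overlapping intervals. Spearman's rho between Fcgr2b and Fcgr3 CPM was 0.33 over the 60 Gzmb-high and -0.18 over the 33 Gzmb-low BMCPs, with numbers 46 and 80 included. Cd200r1 and Fcgr2b were the 2 of 8 members with intervals apart after thinning, both lower in Gzmb-high cells. Of the 10624 genes that reached 5 CPM in either kind of BMCP, 1.76% lay apart in that direction and 0.565% in the other.

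In pooled CPM, 3 of the 8 members differed at least 2-fold, where 45.1% of those 10624 genes did, so the members' share was close to the background. Besides Cd200r1 these were Pirb, at 280.3 CPM in Gzmb-high and 136 in Gzmb-low BMCPs (log2 ratio 1.04), and Cd33, at 126 and 62.1 CPM (1.01). Both lay at the 2-fold limit. Without BMCP numbers 46 and 80 they came to 0.94 and 0.91, so that Cd200r1 alone stayed past it. BMCP number 9 held 56.9% of the Gzmb-low Cd33 reads, and leaving out the top cell on either side gave 1.92. The log2 ratio was 0.48 for Cd300a, 0.68 for Cd300lf, 0.42 for Milr1 and 0.14 for Fcgr3, beside a median of 0.29 for all genes. Several ratios differed between the first and last stretches of columns, at 1.35 and 0.12 for Cd300a, 5.79 and 0.12 for Cd300lf, and 0.48 and 1.56 for Pirb. In the first stretch no thinned Gzmb-low cell held a Cd300lf read. For the 6 members other than Cd200r1 and Fcgr2b the intervals of the shares overlapped.

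**Figure D4:**
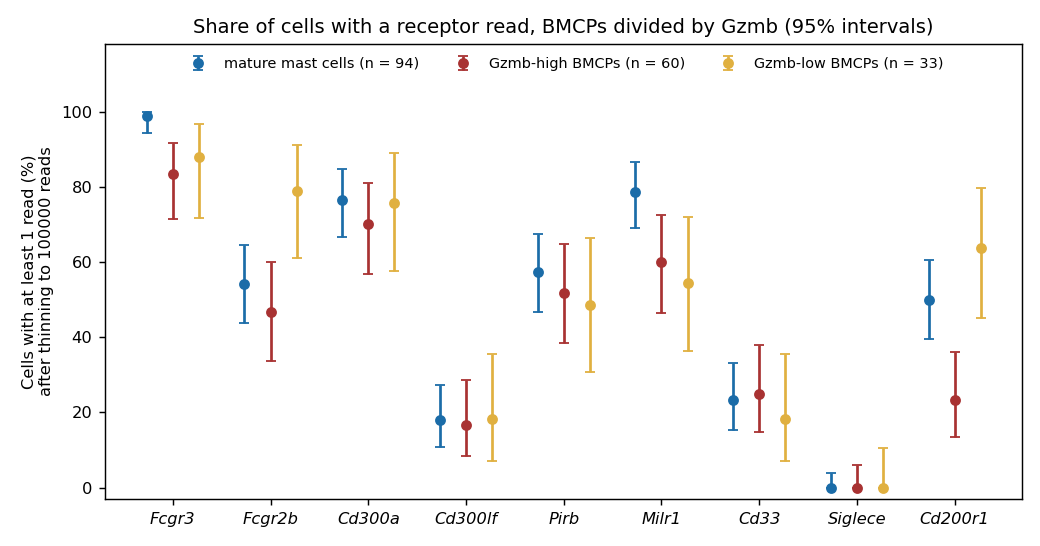
Share of cells (%) with at least 1 read of each receptor after thinning to 100000 reads, in 94 mature mast cells (blue), 60 Gzmb-high BMCPs (red) and 33 Gzmb-low BMCPs (yellow). Bars are 95% Clopper-Pearson intervals, and those of the 2 kinds of BMCP lie apart for Cd200r1 (23.3% against 63.6%) and Fcgr2b (46.7% against 78.8%).

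The signalling partners of these receptors were present in both gates. Of 12 genes that act downstream of inhibitory receptors, 11 had at least 5 CPM (median log2 ratio -0.10). None of them differed 2-fold between the gates, where 29.1% of all genes did. The highest pooled CPM among them belonged to Ptpn6, at 736 CPM (mature) and 851 CPM (BMCP), and Inpp5d, at 356 and 443 CPM. The related phosphatase genes Ptpn11 (34.01 and 36.4 CPM) and Inppl1 (5.38 and 3.02 CPM) were far lower. Within the BMCPs all 12 had at least 5 CPM. Of these, 2 were at least 2-fold higher in Gzmb-high cells, where 27.6% of all genes were. Another 3, Rasa1, Inppl1 and Dok2, were at least 2-fold lower, where 17.5% were. Without BMCP numbers 46 and 80, Rasa1 was no longer among them. The higher genes were Cbl, read in 1 Gzmb-high cell, and Inpp5d. Inpp5d was at 555 CPM in Gzmb-high and 244 CPM in Gzmb-low BMCPs, a log2 ratio of 1.19. Of the partners that Cd200r1 uses, Dok1 had 72.02 and 57.9 CPM and Dok2 21.6 and 12.2 CPM by gate. Rasa1 had 48.5 and 24.01 CPM, with 40.4% of the mature reads in mature mast cell number 21, and it passed 2-fold when BMCP numbers 46 and 80 were left out. Dok2 was at 1.94 CPM in Gzmb-high and 30.3 CPM in Gzmb-low BMCPs, from reads in 1 of 60 and 3 of 33 thinned cells.

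The activating side of the pathway differed little between the gates. The γ chain gene Fcer1g, on which Fcgr3 depends, stood at 2874 CPM in the mature and 3193 CPM in the BMCP gate, and was read in all 94 and all 93 thinned cells. None of the 5 genes of IgE receptor chains and ITAM partners differed 2-fold, where 29.1% of all genes did. Lyn, the Src family kinase that phosphorylates ITAMs and ITIMs, had 282 and 261 CPM.

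Other receptors with ITIM or related tyrosine motifs ranged from log2 ratios of -5.50 to 2.67 between the gates. Of 11 with at least 5 CPM, 2 were at least 2-fold higher in mature mast cells, where 9.9% of all genes were, and 5 at least 2-fold lower, where 19.2% were. Sirpa, the receptor for CD47, was at 151 CPM in the mature gate and 72.5 CPM in the BMCP gate. Within the BMCPs it was at 5.69 CPM in Gzmb-high and 191 CPM in Gzmb-low cells, with reads in 5 of 60 and 18 of 33 thinned cells. Ceacam1, the other gene higher in mature mast cells, was read in 4 of them. Among the 5 lower genes were the B cell receptors Cd22, Siglecg and Btla, which fell below 5 CPM in both gates without BMCP numbers 46 and 80. The other 2, Lair1 and Cd244a, were still at least 2-fold lower then. Cd244a was at 0.48 CPM in the mature and 65.9 CPM in the BMCP gate, from 7 thinned BMCPs that were all Gzmb-high, with 48.1% of the reads in BMCP number 60.

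Among close relatives of the members without an ITIM, 5 had at least 5 CPM. Cd200r4, an activating relative of Cd200r1, had 102 CPM in the mature gate against 53.2 CPM in the BMCP gate. It was also lower in Gzmb-high than in Gzmb-low BMCPs, at 19.3 and 113 CPM, with reads in 7 of 60 and 11 of 33 thinned cells. Cd200r3, the relative with the highest pooled CPM (557 and 345 by gate), differed little there. It had 324 CPM in Gzmb-high and 382 CPM in Gzmb-low BMCPs, a log2 ratio of -0.24. Cd200r1 and Cd200r4 share 40 of their 50-base stretches. Cd300lb, an activating relative of Cd300a, had 0.0337 CPM in the mature gate against 36.6 CPM in the BMCP gate, from 5 Gzmb-high cells. Number 28 held 49.8% of these reads, the same cell that led Cd300lf. The remaining IgG receptor genes Fcgr1 and Fcgr4 had no read in any kept cell.

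Of the genes for ligands, those of MHC class I, the ligand of Pirb, had the highest levels. H2-K1 was at 3186 and 1797 CPM by gate, H2-D1 at 7893 and 5527 and B2m at 8223 and 4942. Within BMCPs H2-K1 was at 1196 CPM in Gzmb-high and 2859 in Gzmb-low cells, where Pirb had the opposite order. Cd200, the ligand gene of Cd200r1, had no read in the kept cells.

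**Figure D5:**
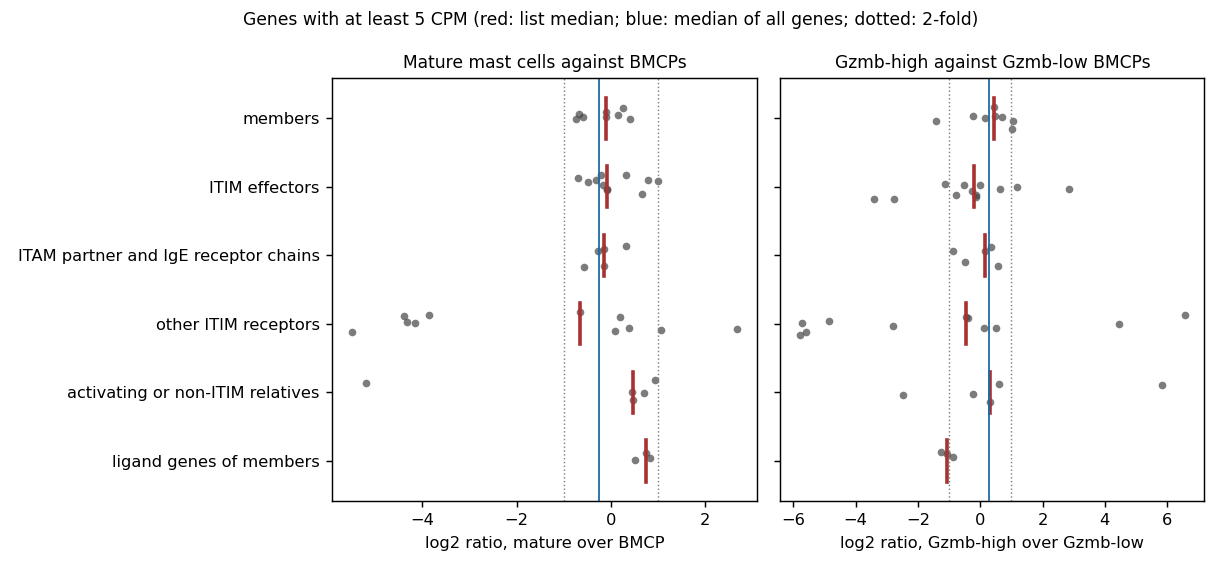
Log2 ratios of pooled CPM + 1 for the members and 5 lists of related genes, mature over BMCP (left) and Gzmb-high over Gzmb-low BMCPs (right). Each point is a gene with at least 5 CPM in either group, red lines are list medians, blue lines the median of all genes (-0.25 and 0.29) and dotted lines 2-fold. All 8 members lie within 2-fold on the left, and Cd200r1 is the leftmost member on the right at -1.42.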

How the data were processed

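The deposited table holds read counts per gene, not normalized, with 1 column per cell. Reads were aligned with GSNAP to mm10 and counted with HTSeq 0.5.3p3, per the submitters' processing notes. The annotation release and use of strand are not given in the sources used here. cDNA was made from poly(A) RNA with 23 PCR cycles and no molecular identifiers, per the labels' protocols, so PCR copies count as reads.

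ERCC and summary rows were left out of totals (reads without a feature: 12.5% in mature mast cells, 16.2% in BMCPs). The minimum of 100000 reads removed 2 BMCPs. Symbols and positions came from GENCODE M21 (GRCm38), which named 98.0% of identifiers. Members and lists were chosen with earlier results of these data known, and all members and the genes of the listed lists with at least 5 CPM could be named. Log2 ratios used pooled CPM + 1. Cells were thinned once to 100000 reads with a fixed seed. Doublets were not called. Some listed genes are not reported here. No test was made, since each gate is 1 sample. The pooled log2 ratio and the 2-fold call were tested on simulated counts, and the other steps were not. Python 3.11.15 and, for TMM factors, edgeR 4.0.16 were used. The alternatives were other scalings, pseudocounts, read minimums, thinning depths and left-out cells.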

Additional observations from a re-analysis of the deposited data

Results flagged for a closer look

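BMCP number 93 was left out for its 36972 reads, below the minimum of 100000, yet held member reads above the limit of 3 reads that a count of 0 allows. It had 37 reads of Pirb, 25 of Fcgr3 and 4 of Fcgr2b, and none of Cd300a, Cd300lf, Siglece or Cd200r1.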

How the results depend on the processing

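No paired analysis was possible because the numbers in the sample names count cells, each gate is 1 pooled sample and no test was made. The number of members at least 2-fold apart between the gates was 0, and became 3 with ERCC totals (Milr1, Fcgr3 and Cd200r1), 1 with ERCC totals without BMCP number 55 (Milr1) and 1 over the last stretch of columns (Cd33). It was 0 under the 9 other settings tried. The number of members whose shares of cells had intervals apart between the gates was 2, and became 0 with 1 unthinned read, 0 with cells thinned to 500000 reads, 1 without BMCP numbers 46 and 80, and 0 over the first and 0 over the last stretch of columns. Between Gzmb-high and Gzmb-low BMCPs it was 2, and became 0 at 50 unthinned reads, 0 over the first and 0 over the last stretch, where fewer cells widen the intervals. The related lists held 2 genes at least 2-fold higher in mature mast cells, 5 with granule genes left out of the totals and 18 with ERCC totals. They held 9 genes at least 2-fold higher in BMCPs, 9 with granule genes left out of the totals and 7 with ERCC totals. Where no construction shows it, the cause was not tested. Settings with BMCP numbers 46 and 80 or number 55 left out, with stretches of columns or with single cells left out were chosen after seeing the data. The median number of members per cell was 4 and 3 at 50 unthinned reads, against 5 and 4. No log2 ratio of a member crossed from 2-fold higher to 2-fold lower. For Cd300lf and Cd33 the number of cells limits precision, since 13 to 21 cells of a gate held at least 50 of their reads.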
